A study of Mus musculus with 3 samples.

Results

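The regions described here are the FLAG-Tex10 peaks in windows around 4 genes of the fibroblast growth factor (FGF) pathway, Fgf4, Spry4, Dusp6 and Etv5. Members were all peaks of the deposited list that overlapped, by at least 1 bp, a window given for each gene on the mouse build mm9. The windows were chr7:152000000-152100000 for Fgf4, chr18:38695000-38810000 for Spry4, chr10:98675000-98780000 for Dusp6 and chr16:22330000-22490000 for Etv5. They held 14 of the 5189 peaks of the list. The rule uses positions and not scores, although the genes were proposed with earlier results of these data known.

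The study mapped Tex10 on chromatin by chromatin immunoprecipitation and sequencing (ChIP-seq), a method that enriches the DNA fragments a protein sits on or near. The cells were J1 mouse embryonic stem (ES) cells of 129SV background, grown in serum with leukaemia inhibitory factor on gelatin. All 3 libraries came from the T10F10 line, in which a piggyBac transposon vector expresses Tex10 with a 3xFlag tag, so the profile is that of an ectopic, tagged protein. The labels name neither the promoter of the transgene nor whether the line is 1 clone. The libraries were an immunoprecipitation with a FLAG antibody, an immunoprecipitation with normal mouse IgG as control and input DNA, with 1 sample each and no replicate. The processed file used here belongs to the FLAG library, and no value of the other libraries was analysed here, so no peak is set against a control.

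FGF4 is a secreted ligand that ES cells make themselves, and Fgf4 is a classical target of the factors OCT4 and SOX2. FGF4 binds FGF receptors and activates the ERK kinases, which move ES cells away from self-renewal and towards lineage commitment. Spry4, Dusp6 and Etv5 are induced by ERK signalling and are widely used as its transcriptional readouts. Spry4 encodes a Sprouty protein that restrains receptor tyrosine kinase signalling, Dusp6 a phosphatase that removes the activating phosphates of ERK, and Etv5 a transcription factor of the ETS family. Tex10 is a nuclear protein that the series title places at super-enhancers, which are clusters of strong enhancers beside genes that define a cell's identity.

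Tex10 peaks were present in all 4 windows but unevenly spread. Of adjacent autosomal windows of the same length, at least 1 peak lay in 14.6% for Fgf4 and 16.3% for Spry4. The share was 15.3% for Dusp6 and 21.2% for Etv5. The Etv5 window held 8 of the 14 peaks, the Spry4 window 3, the Fgf4 window 2 and the Dusp6 window 1. Per 100 kb this was 5 peaks for Etv5, 2.61 for Spry4, 2 for Fgf4 and 0.952 for Dusp6. The highest score, 16.4, was in the Spry4 window and the next highest, 12.9, in the Etv5 window. All 3 Spry4 peaks scored above the median of the autosomal list, against 1 of the 8 Etv5 peaks and, by construction, 50% of autosomal peaks. These are values of 1 library, so no difference between the genes carries a replicate error or a test.

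The promoters of 3 of these genes are shown because they are the stretches that start transcription of the ligand, the phosphatase and the ETS factor for which the windows are named. Where each gene lies inside its mm9 window was not checked, so distances below are from the middle of the window and not from the gene. Each is 300 bases long and spans a transcript start in RefSeq, build GRCm38.p6. Capitals mark GGGCGG on either strand, the core letters bound by Sp and KLF factors.
Fgf4 promoter, GRCm38.p6 chr7:144861136-144861435, plus strand: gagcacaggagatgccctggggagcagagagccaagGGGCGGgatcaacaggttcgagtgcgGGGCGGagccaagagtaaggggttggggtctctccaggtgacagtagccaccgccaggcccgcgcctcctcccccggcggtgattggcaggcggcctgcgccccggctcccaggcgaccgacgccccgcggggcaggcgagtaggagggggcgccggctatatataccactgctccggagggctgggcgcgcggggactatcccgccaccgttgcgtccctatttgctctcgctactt
Dusp6 promoter, GRCm38.p6 chr10:99262981-99263280, plus strand: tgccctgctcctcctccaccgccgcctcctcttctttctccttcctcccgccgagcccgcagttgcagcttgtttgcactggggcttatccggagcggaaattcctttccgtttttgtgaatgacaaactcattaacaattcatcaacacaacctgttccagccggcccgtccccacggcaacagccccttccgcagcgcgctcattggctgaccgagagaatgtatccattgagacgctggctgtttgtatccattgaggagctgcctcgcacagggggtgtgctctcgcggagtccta
Etv5 promoter, GRCm38.p6 chr16:22439521-22439820, minus strand: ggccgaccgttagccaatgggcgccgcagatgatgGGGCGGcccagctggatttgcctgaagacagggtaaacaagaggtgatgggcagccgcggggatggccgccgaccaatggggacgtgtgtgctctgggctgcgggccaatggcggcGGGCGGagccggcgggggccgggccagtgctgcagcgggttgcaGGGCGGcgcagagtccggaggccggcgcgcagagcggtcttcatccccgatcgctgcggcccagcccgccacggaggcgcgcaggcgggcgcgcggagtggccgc

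These positions belong to another build than the peaks, so no peak was placed on or off a promoter, exon or intron. In particular, the Etv5 promoter coordinate cannot be set against the Etv5 peak coordinates given in mm9. The promoters differed in base composition. The GC share was 69.7% for Fgf4, 57.3% for Dusp6 and 74.0% for the Etv5 promoter shown, against a median of 52.7%, with quartiles of 45.7% and 61.7%, over all 32851 promoters of the table. RefSeq gives Etv5 another start 1202 bp downstream, and its promoter had a GC share of 60.0%. The Fgf4 promoter and the Etv5 promoter shown thus lay above the upper quartile, and the Dusp6 and downstream Etv5 promoters lay between the quartiles. GGGCGG occurred 2 times in the Fgf4 promoter and 3 times in the Etv5 promoter shown. It occurred in neither the Dusp6 promoter nor the downstream Etv5 promoter, and 35.7% of all promoters hold it at least once. Also searched on both strands were ATGCNAAT (the octamer of POU factors, held by 3.15% of all promoters), ACAATG (SOX, 12.6%), CCGGAAG (ETS, 8.86%), AAGGTCA (ESRRB, 4.72%) and CACGTG (E-box, 7.15%). None of these letters occurred in the 4 promoter windows, which says nothing about the factors or about sequence outside them. Where motifs overlapped, each was counted separately.

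The ligand gene came with a pair of weak peaks. Fgf4 lies between Fgf3 and Fgf15, both FGF ligand genes, in the RefSeq gene order. The first peak spanned 381 bp at chr7:152043755-152044135 and scored 3.96. The second spanned 393 bp at chr7:152047111-152047503 and scored 3.18. The score is the authors' value per peak, its scale is not named, and it serves here only to rank peaks within the list. A space of 2.98 kb separated the peaks, and both lay close to the window's middle, at −6.06 and −2.69 kb. Each scored below the median of all other autosomal peaks, 5.20. The first scored higher than 28.2% of all autosomal peaks and the second higher than 13.5%.

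The pair was read against windows of the same length. The 19 autosomes were divided into adjacent windows of the same 100 kb, 24712 in all. They include assembly gaps and were not chosen around genes, as the Fgf4 window was. At least 1 peak lay in 14.6% of them and at least 2 peaks in 3.97%. No further peak was found near the pair. The nearest outside the window lay 1376 kb before it, with a score of 8.20, and 120 kb after it, with a score of 2.64.

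The Spry4 window had the highest median score of the 4 windows, 11.2. Spry4 is followed in the RefSeq gene order by Arhgap26 and preceded by Ndfip1, an adaptor of ubiquitin ligases. The first peak, at chr18:38761043-38761921, was 879 bp wide and scored 11.2. It was wider than 99.1% of all autosomal peaks and scored higher than 88.7% of them. It lay 8.98 kb from the middle of the window.

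The other two Spry4 peaks lay near the window's right end. One, at chr18:38791192-38791618, was 427 bp wide and scored 8.99. The last, at chr18:38795535-38796006, was 472 bp wide and scored 16.4, the highest score of all 14 member peaks. This last peak ranked 285 among 5120 autosomal peaks and scored higher than 94.4% of them. On chromosome 18 alone it scored higher than 95.6% of the 135 peaks.

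The 2 peaks at the right end were 3.92 kb apart, and 29.3 kb separated them from the first peak. Since they lay 38.9 and 43.3 kb from the middle, whether they belong to Spry4 or to a neighbouring gene such as Arhgap26 cannot be told from the list. Without them, in the central part of the window with 50% of its length, the count was 1. That peak scored 11.2, below the strongest Etv5 peak, 12.9, which lay in the central part of its own window. Among 21488 autosomal windows of 115 kb, 16.3% held at least 1 peak and 1.64% at least 3. The nearest peak outside lay 116 kb before the window, with a score of 3.45, and 254 kb after it, with a score of 5.80.

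The phosphatase gene had a single narrow peak. In the Dusp6 window the peak at chr10:98723772-98723996 was 225 bp wide and scored 4.71. This was 1 bp above the narrowest width in the list, 224 bp, and higher in score than 40.9% of all autosomal peaks. The same score recurred in 60 peaks of the list, the most of any member peak. It lay −3.62 kb from the window's middle, which placed it within the central part as in the Fgf4 window. Among 23536 autosomal windows of 105 kb, 15.3% held at least 1 peak and 84.7% held none.

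The Dusp6 peak was isolated. No other peak lay within 199.8 kb after it or 3369 kb before it, and 77.9% of autosomal peaks had a nearer neighbour than this. The protein-coding genes next to Dusp6 in the RefSeq order are Galnt4, which encodes an enzyme of O-glycosylation, and Csl, a citrate synthase-like gene.

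**Figure D1:**
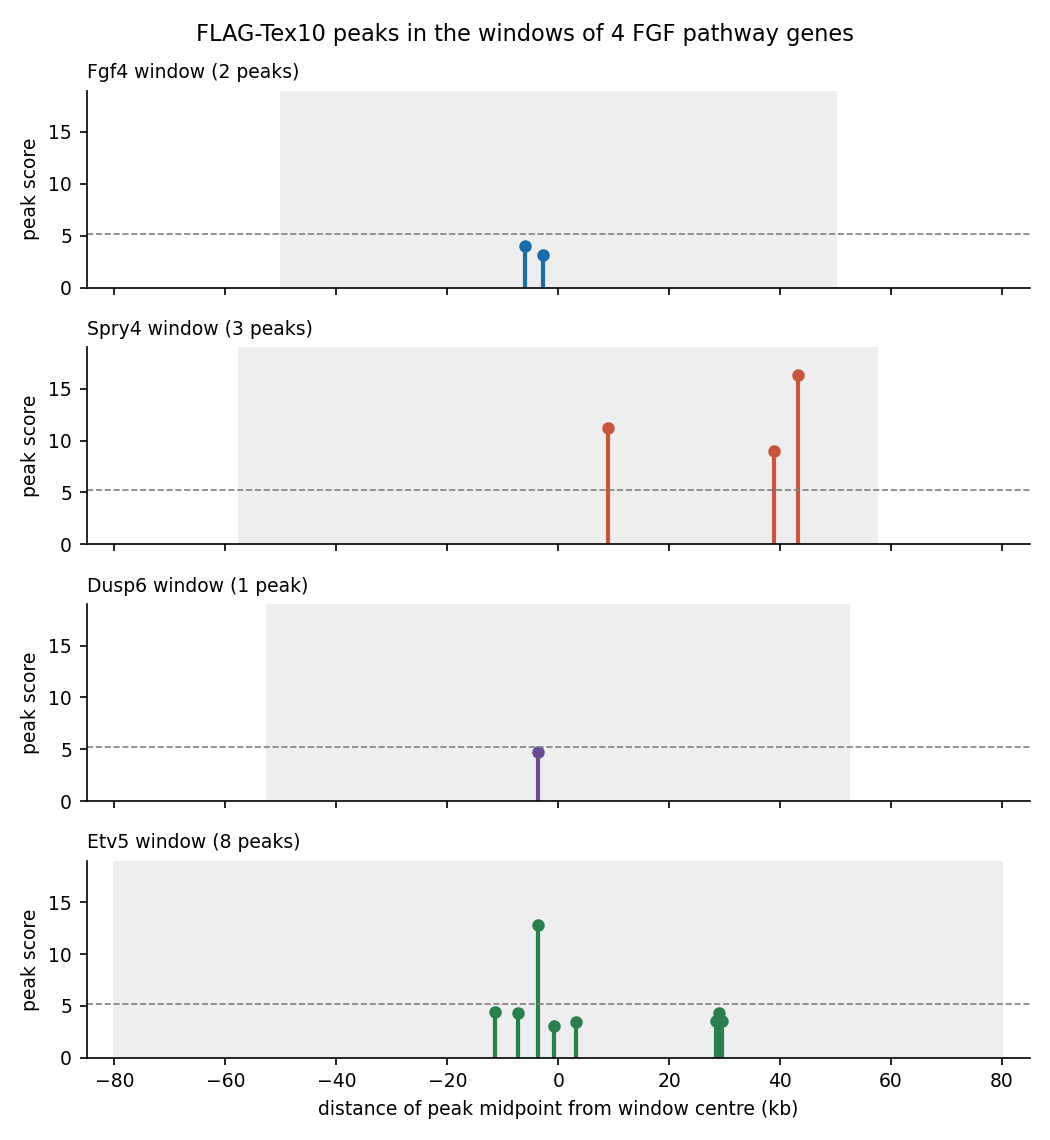
Each stem is a FLAG-Tex10 peak, placed by the distance of its midpoint from the window centre (x axis, kb) with its score as height (y axis, the authors' score without a stated unit), in the windows of Fgf4, Spry4, Dusp6 and Etv5; grey areas are the windows, the dashed line is the median score of all other autosomal peaks, 5.20, and n is 1 library. The 3 Spry4 peaks stand above the line, the Fgf4 and Dusp6 peaks stand below it, and of the 8 Etv5 peaks 1 stands above it.

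The ETS factor gene had the most peaks per length, though not among the stronger peaks. With only peaks above the median score of the list, the Etv5 window kept 1 peak and the Spry4 window 3. In the RefSeq order Etv5 lies between Tra2b, which encodes a splicing factor, and Dgkg, a diacylglycerol kinase gene. The 8 peaks of its window fell into a group of 5 and a group of 3, with 24.9 kb between the groups. They spanned 41.2 kb in all, from chr16:22398460 to 22439641. The rest of the window, on both sides, was free of peaks, and the nearest peaks outside lay 190 kb before and 608 kb after it.

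The group of 5 had 1 strong peak in its middle. Neighbouring peaks were 2.45 to 3.84 kb apart. The third peak, at chr16:22406253-22406630, was 378 bp wide and scored 12.9, higher than 91.0% of all autosomal peaks. On its left, peaks of 262 and 388 bp scored 4.45 and 4.33, at chr16:22398460-22398721 and chr16:22402558-22402945. On its right, peaks of 334 and 320 bp scored 3.06 and 3.42, at chr16:22409081-22409414 and chr16:22413001-22413320. The 4 flanking peaks were thus all below the median of all other autosomal peaks, and the third peak was the only one of the 8 above it.

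The group of 3 was tight and weak throughout. Peaks of 343, 224 and 224 bp lay at chr16:22438255-22438597, chr16:22438873-22439096 and chr16:22439418-22439641. Their scores were 3.52, 4.31 and 3.56. Only 275 and 321 bp separated them, so the peaks covered 57.0% of the 1.39 kb they spanned. Where peaks under 500 bp apart were joined, these 3 became 1 and the Etv5 window held 6.

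Counted over all scores, few places on the autosomes held as many peaks as close together. At least 1 peak lay in 21.2% of 15442 autosomal windows of 160 kb, and at least 8 in 9 windows, or 0.0583%. With its group of 3 joined, the Etv5 window held 6. Without joining elsewhere, a further 12 windows held exactly 6 and 10 exactly 7. No share was computed with peaks joined in all windows. With only peaks above the median score, 12.6% of these windows held at least the 1 peak that Etv5 kept, and 0.475% of windows of the Spry4 length held at least its 3. The fullest of these windows held 19 peaks. The fullest on chromosome 16 held 7, and a window with 7 of the Etv5 peaks was among those. The adjacent windows divide the Etv5 peaks at a border, so the spans of neighbouring peaks were compared as well, a comparison chosen after the values were seen. Of all 4987 runs of 8 neighbouring autosomal peaks, 18 spanned no more than that of Etv5, itself included, and they lay in 5 places on 4 chromosomes.

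Etv5 had the lowest median score of the 5 places. Its 8 peaks had a median score of 3.94. The other places were on chromosome 7 (chr7:3193483-3219224, median 7.33), chromosome 8 (chr8:19921556-19948073, lowest run median 5.37) and chromosome 9, near its start (chr9:2999953-3038171, lowest run median 16.8) and further along (chr9:110848091-110863061, median 5.43). For the group of 5, 36 of 5044 runs of 5 were as short, itself included, in 11 places. For the group of 3, 3 of 5082 runs of 3 were as short, itself included. The other two lay at chr15:103349227-103350562 and chr18:3004709-3006039. After joining of peaks with under 10 kb between them, the group of 5 was 1 of 12 stretches with at least 5 peaks among 4330, or 0.277%. At least 3 peaks, as in the group of 3, were held by 3.14% of the 4330 stretches. At least 2, as in the Fgf4 pair and the Spry4 pair at the right end, were held by 13.2%. Of 5101 runs of 2 neighbouring peaks, 10.2% were as short as the Fgf4 pair and 11.5% as short as that Spry4 pair.

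**Figure D2:**
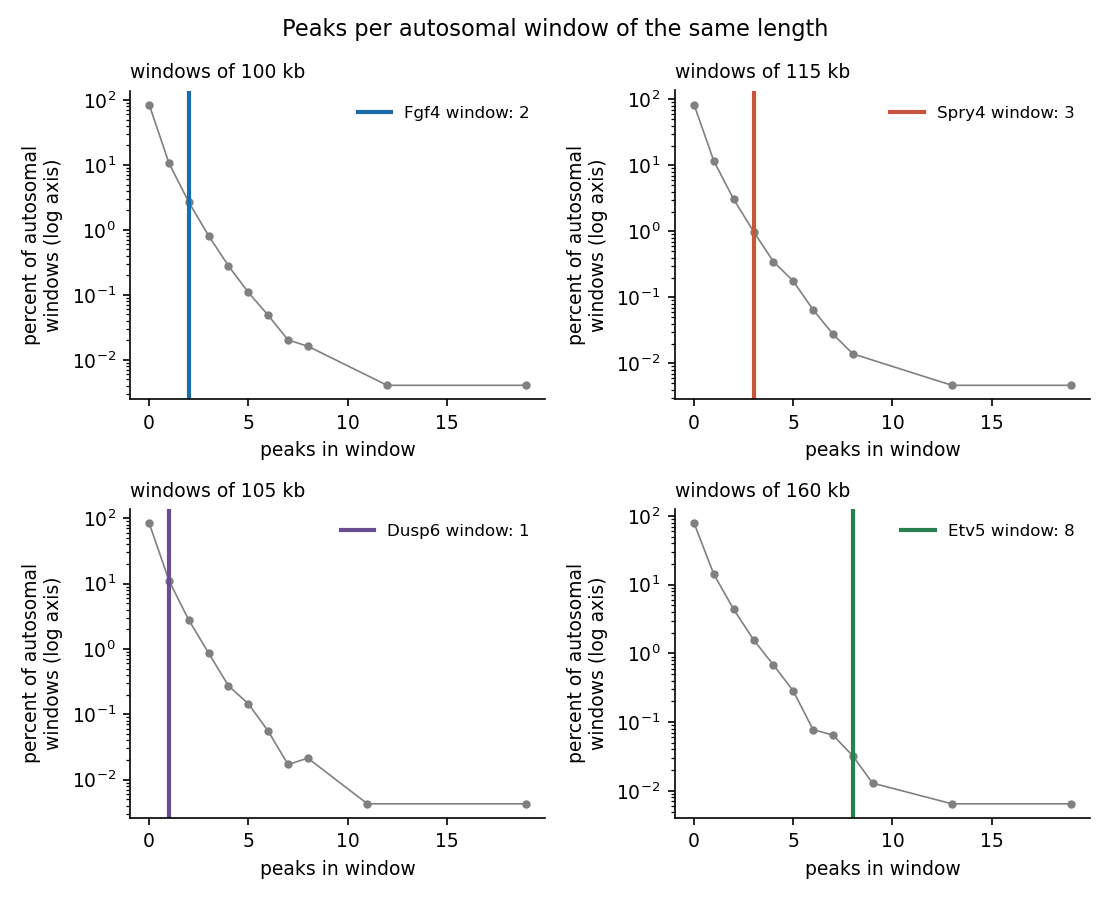
Each panel shows how many peaks (x axis) lay in each adjacent autosomal window of the length given for 1 gene, as a percent of windows on a log axis (y axis); grey points are all such windows with that count, and the coloured line marks the window of the gene. The Etv5 line at 8 peaks lies where 0.0583% of windows held at least as many, the Spry4 line at 3 where 1.64% did, the Fgf4 line at 2 where 3.97% did and the Dusp6 line at 1 where 15.3% did.

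The 14 member peaks had a median score of 4.32, with quartiles of 3.53 and 7.92, against a median of 5.20 with quartiles of 3.75 and 7.64 for all other 5106 autosomal peaks. Scores above the median of the autosomal list were found in 4 member peaks, 3 from the Spry4 window and 1 from the Etv5 window, and by construction in 50% of autosomal peaks. Of the 10 member peaks below it, 7 came from the Etv5 window, so their number describes mainly that window. A score of at least 10 was reached by 3 member peaks (21.4%), 2 at Spry4 and 1 at Etv5, where 14.2% of autosomal peaks reached it. The highest member score, 16.4, was far below the highest autosomal score, 317. Of the member peaks 5 had a score shared by at least 10 peaks of the list, as did 48.8% of autosomal peaks, and no Spry4 peak was among them.

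Widths were close to those of the list. The member peaks had a median width of 360.5 bp, against 313 bp for all other autosomal peaks. Their quartiles, 276.5 and 391.75 bp, lay within those of the others, 253 and 402 bp. The narrowest width of 224 bp was found in 2 member peaks, both at Etv5. This was 14.3% of member peaks, against 11.7% of all other autosomal peaks. Width and score did not go together in every window. The widest Spry4 peak, at 879 bp, scored lower than the Spry4 peak of 472 bp, and the Fgf4 peaks of 381 and 393 bp had a width like that of the strong Etv5 peak but scores of 3.96 and 3.18 where it had 12.9.

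**Figure D3:**
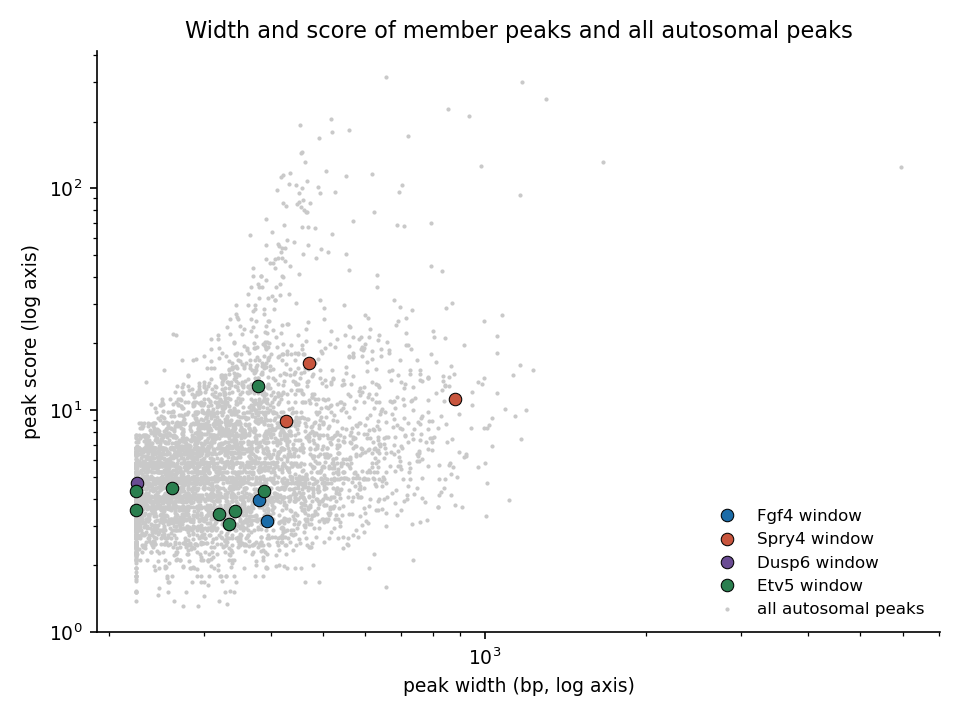
Each point is a peak, by its width (x axis, bp, log axis) and the authors' score (y axis, log axis), for the 14 member peaks in colour by window and for all autosomal peaks in grey. The Spry4 peaks and the strong Etv5 peak lie between scores of 8.99 and 16.4, and the other 10 member peaks lie between 3.06 and 4.71.

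Most member peaks had a close neighbour. The nearest other peak was less than 5 kb away for 12 of the 14, where this held for 21.7% of autosomal peaks. The exceptions were the Dusp6 peak and the first Spry4 peak, at 199.8 and 29.3 kb. The median distance was 3.14 kb for the member peaks and 52.3 kb for all autosomal peaks. Since 8 of the 12 are peaks of the Etv5 window, which are neighbours of each other, this count describes mainly that window. Around each window, stretches of equal length on both sides held 0 peaks, as did 85.4% of autosomal windows of the Fgf4 length, 83.7% of the Spry4 length, 84.7% of the Dusp6 length and 78.8% of the Etv5 length. Within 500 kb of the windows there were 2 other peaks for Fgf4, 8 for Spry4, 2 for Dusp6 and 1 for Etv5.

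**Figure D4:**
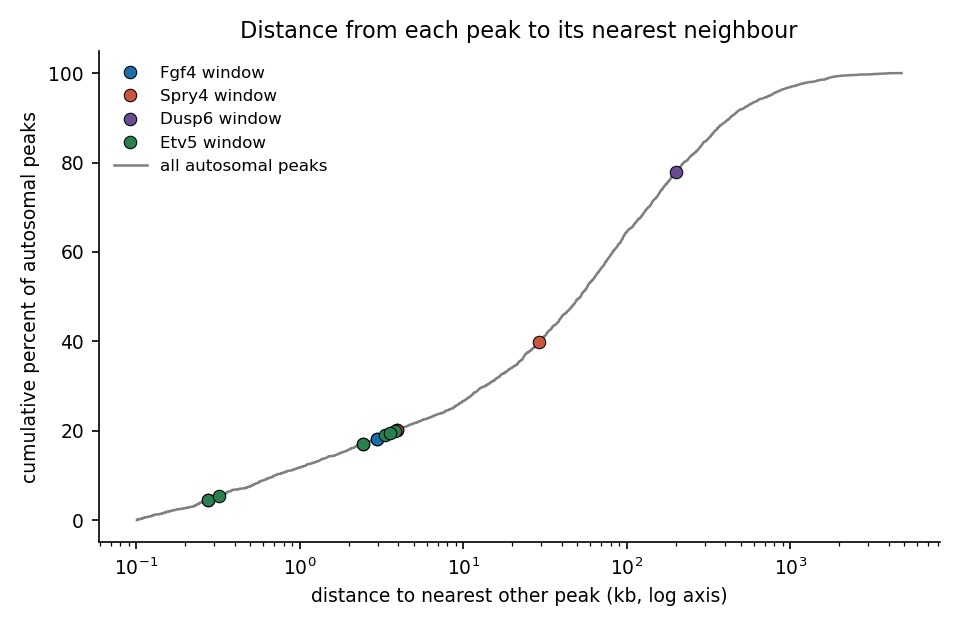
The grey line gives the cumulative percent of autosomal peaks (y axis) by distance to the nearest other peak (x axis, kb, log axis), and coloured points place the 14 member peaks on it. The 8 Etv5 peaks lie between 0.275 and 3.84 kb, both Fgf4 peaks at 2.98 kb, and the Dusp6 peak at 199.8 kb.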

How the data were processed

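The authors deposited 1 list of peaks for the FLAG library, with chromosome, start, end, peak name and a score per peak. The scale of this deposited score and the peak caller are not given in the sources used here. Per the submitters' processing notes the build was mm9 and the tools named were bedtools 2.18.1, SAMtools 0.1.19, Bowtie 1.0.0 and FastQC 0.10.1, with no role or order. Whether IgG or input served as control for the peaks is not stated, and the list holds no read counts, so depth is unknown and no interval is given for a peak. Peaks necessarily come from 1 library.

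Starts are given 1-based. A peak counted as a member when at least 1 bp lay in a window. The windows, genes, motifs and comparisons were chosen with earlier results of these data known. Adjacent windows of equal length were laid from the first base of each of 19 autosomes, with assembly gaps left in, using mm9 lengths from GenomeInfoDb 1.38.1 under R 4.3.3, and 0 peaks ran past a chromosome's end. These windows were not chosen around genes, as the 4 gene windows were, and no share over windows around genes only was computed. Runs and stretches used autosomal peaks. Named genes are the 4 given genes and protein-coding neighbours in the RefSeq table (GRCm38.p6), used for gene order only. Promoter sequences are from RefSeq, with 4 promoters found for 3 of the 4 genes. Of 33 other pathway genes 22 had a promoter in the table, so a comparison over that list would be incomplete, and none is given. Where the peaks of those genes lie was not analysed here, since no mm9 gene positions were used. Window counts and joining were checked on a simulated list, and runs of neighbouring peaks were not. The software was Python 3.11.15, numpy 2.4.6, pandas 2.3.3 and scipy 1.17.1, with figures drawn in matplotlib 3.10.9. No statistical test was run, since there is 1 library. Alternatives changed the overlap, the joining, the score minimum, the window length and the set of windows.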

Additional observations from a re-analysis of the deposited data

How the results depend on the processing

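Of 59 recomputed values, 40 did not move past their limits, which were 1.5 times for counts, the 95% Wilson interval for shares of windows and equality for medians. The interval of the main setting was used for all settings. Since the windows are a full count and not a random draw, it is only a fixed limit and measures no spread. With only peaks above the median score of the whole list, 5.22, the counts were 0 for Fgf4, 3 for Spry4, 0 for Dusp6, 1 for Etv5 and 4 in all. The same setting gave a share of autosomal windows with at least as many peaks of 0.475% for Spry4 and 12.6% for Etv5 (1 peak), and none could be given for Fgf4 and Dusp6, which had 0 peaks. In the central 50% of each window Spry4 had 1 peak, the median score was 4.14 and the median width 338.5 bp. With peaks under 500 bp apart joined, the median score was 4.39 and the median width 384.5 bp. Against windows of its own chromosome the share was 3.61% for Fgf4, 0.887% for Spry4, 14.8% for Dusp6 and 0% for Etv5. A border of these windows divides the Etv5 peaks, so its own place could not count towards the 0%. Among windows with at least 1 peak the share was 27.1% for Fgf4, 10.0% for Spry4, 100% for Dusp6 and 0.275% for Etv5. This follows from leaving out empty windows. The causes of the other changes were not tested. Counting by midpoint, a score of at least 3 and wider windows, including 50 kb more on both sides (chosen after seeing the data), changed no count. These outcomes followed from values already given. No member peak crossed a window's end, the lowest member score was 3.06, and stretches of equal length beside each window held 0 peaks. Such settings are among the 40 and add no support. No paired analysis was possible because only the FLAG library, a single sample, was analysed. The depth is unknown, so what it limits in this list was not tested.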
